A study of Mus musculus with 12 samples.

Results

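The genes described here are 10 surface markers by which progenitor and mesenchymal cells are recognised: Cd34, Ly6a, Ly6c1, Thy1, Nt5e, Eng, Alcam, Pdgfra, Pdgfrb and Cdh13. They were looked up by symbol in a deposited table of 17536 genes, and all 10 were found, each on 1 row. The members were chosen on measured values of the same table: some because their transcripts were abundant in cells of the superficial zone (SFZ) of articular cartilage, and some because they were more abundant in deep zone (DZ) cells of the Runx3 mutant. The differences between zones in either genotype, and between genotypes in DZ cells, are therefore given as descriptions without a test. The genotypes in SFZ cells did not serve to choose them, and that comparison was tested.

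RNA was sequenced from chondrocytes of 5-day-old C57BL/6 mice in 12 libraries, 3 for each of 4 groups. The groups were both zones of R3-Cntl mice (Runx3 fl/fl) and of their R3-cKO littermates (Col2a1-Cre; Runx3 fl/fl), in which Cre is driven by the promoter of the cartilage collagen Col2a1. SFZ cells were released from the ends of femora and tibiae with trypsin and then collagenase, DZ cells by digesting what remained of the epiphyseal cartilage, and the cells were grown as monolayers on fibronectin before RNA was taken. Each value is an FPKM, the fragments per kilobase of transcript and 1000000 mapped fragments, scaled between libraries by the authors. Judged by the steps between the lowest values of 642 short genes, 1 fragment in a transcript of 1 kilobase corresponded to 0.034 to 0.039 FPKM, which implies about 26000000 to 29000000 fragments per library.

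As background, mesenchymal progenitors are identified by combinations of surface proteins, none of which belongs to these cells alone, and many of the same proteins are carried by fibroblasts, pericytes, endothelial cells and blood progenitors. Cartilage grows from progenitors at the joint surface and in the perichondrium, and chondrocytes that mature into deeper cartilage generally carry less of many of these antigens. Runx3 is a transcription factor of the runt family that acts with Runx2 in chondrocyte maturation.

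The label of genotype was not borne out by the level of Runx3 (Entrez gene 12399). Runx3 stood at 10.7, 5.98 and 6.65 FPKM in the R3-Cntl SFZ libraries and at 11.8, 9.07 and 3.42 in the SFZ libraries labelled R3-cKO. In DZ cells it stood at 12.7, 12.7 and 7.66 against 16.0, 12.7 and 8.14. Both ranges overlapped, the log2 differences were -0.04 ± 0.43 (standard error) in SFZ and 0.13 ± 0.28 in DZ cells, and the exact two-sided permutation p was 1 and 0.6, where 3 against 3 libraries cannot give less than 0.1. A value per gene also counts fragments from any exon outside the floxed part. The mutant libraries are called "labelled R3-cKO" below, and every direction drawn from the genotype rests on that label.

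The libraries also differed in Y-linked transcripts. Ddx3y stood at 15.4, 4.96 and 21.1 FPKM in R3-Cntl SFZ cells, at 17.0, 7.50 and 6.92 in R3-Cntl DZ cells, and at 10.7 and 12.7 in library 1 of the SFZ and DZ cells labelled R3-cKO. In libraries 2 and 3 labelled R3-cKO, Ddx3y was at 0.02 and 0.01 FPKM in SFZ cells and at 0 in DZ cells. Eif2s3y, the most abundant of the 4 listed, was at 0 in those 4 libraries and at 5.02 to 21.6 FPKM in the other 8. The labels do not give the sex of the mice. In libraries 2 and 3 the genotype label and the Y-linked transcripts changed together, so differences that go with either cannot be told apart there. The comparisons of genotype are for this reason also given for library 1 of each group alone, which is 1 against 1 with no replicate.

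The cartilage list went with the labelled cell type: 16 of 17 genes were in the table and none was below 1 FPKM in all libraries. Its most abundant gene, the collagen Col2a1, stood at 3049 to 9229 FPKM in SFZ and at 11248 to 22791 FPKM in DZ libraries. In R3-Cntl SFZ library 2, however, the fibroblast, tendon and perichondrium genes summed to more than the cartilage list (9140 against 5776 FPKM). The same held for SFZ library 3 labelled R3-cKO (13088 against 6848), and the cartilage sum was higher in all other libraries. Prg4, the lubricin gene that marks the joint surface, stood at 22.2, 8.38 and 7.13 FPKM in R3-Cntl SFZ cells and at 1.39, 1.22 and 1.47 in R3-Cntl DZ cells. In the SFZ libraries labelled R3-cKO, Prg4 was at 6.95, 2.47 and 2.13 FPKM, below each R3-Cntl SFZ library (log2 -1.45, limma adjusted p 1), and in the DZ libraries so labelled at 5.72, 1.32 and 2.14, so that there the zones overlapped.

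Among the antigens of blood and tissue progenitors, Cd34 (Entrez gene 12490), a sialomucin of blood progenitors, endothelium and stromal fibroblasts, was abundant in SFZ cells and at about 1 FPKM or less in DZ cells. Cd34 stood at 12.6, 27.9 and 27.9 FPKM in R3-Cntl SFZ cells and at 17.1, 24.7 and 13.9 in SFZ cells labelled R3-cKO. In DZ cells it was at 0.06, 0.49 and 0.52 FPKM in R3-Cntl and at 0.81, 1.09 and 0.76 in libraries labelled R3-cKO. All 6 SFZ libraries lay above all 6 DZ libraries, and within DZ cells the 3 labelled R3-cKO lay above the 3 R3-Cntl. At the depth given above, the 0.06 FPKM of R3-Cntl DZ library 1 is about 4 fragments.

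Ly6a (Entrez gene 110454), which encodes the mouse progenitor antigen Sca-1, and its family member Ly6c1 (Entrez gene 17067), also made by endothelium, shared a pattern of their own. Ly6a stood at 19.2, 65.3 and 69.9 FPKM in R3-Cntl SFZ cells, at 39.5, 56.4 and 31.0 in SFZ cells labelled R3-cKO, at 0.33, 4.99 and 9.49 in R3-Cntl DZ cells and at 13, 17.0 and 33.9 in DZ cells labelled R3-cKO. Ly6c1 stood at 10.4, 29.0 and 21.5 FPKM, then 18.2, 21.7 and 16.0, then 0.18, 3.62 and 7.01, and then 9.52, 13 and 33.3 in the same order. For both genes the R3-Cntl DZ libraries were the lowest group and overlapped with none of the others, while the DZ libraries labelled R3-cKO reached into the SFZ range. Library 1 of the R3-Cntl DZ cells was the lowest of all 12 for both, at about 7 fragments of Ly6a and 4 of Ly6c1.

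The ratio of Ly6c1 to Ly6a ranged from 0.307 to 0.54 in SFZ libraries and from 0.545 to 0.983 in DZ libraries. The lowest DZ ratio, of R3-Cntl library 1, rests on about 4 and 7 fragments and cannot be told from the highest SFZ ratio, while the other 5 DZ ratios were 0.725 to 0.983. Reads of these genes could in part be shared with relatives: of the 50-base windows of the Ly6c1 transcript 31.9% also occur in Ly6c2, and of those of Ly6a 4.42% occur in Ly6c2 or Ly6i, but none is shared between Ly6a and Ly6c1. Over 100 bases, the length of a read, 15.4% of the windows of Ly6c1 and 0 of Ly6a were shared. Ly6c2 itself stood at 0 to 0.49 FPKM and Ly6i at 0 to 0.15, so the level of Ly6c1 is uncertain by what the unnamed counting method did with such reads.

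Thy1 (Entrez gene 21838), an anchored glycoprotein of thymocytes, neurons and fibroblasts, followed the zones as Cd34 did. Thy1 stood at 20.8, 39.6 and 32.7 FPKM in R3-Cntl SFZ cells, at 23.1, 11.9 and 45.2 in SFZ cells labelled R3-cKO, at 0.41, 0.85 and 2.25 in R3-Cntl DZ cells and at 3.61, 1.53 and 1.12 in DZ cells labelled R3-cKO. Every SFZ library lay above every DZ library, and the genotypes overlapped in both zones.

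Nt5e (Entrez gene 23959) encodes CD73, the ectoenzyme that turns extracellular AMP into adenosine, and in R3-Cntl cells it was the member with the opposite order of zones. Nt5e stood at 58.5, 23.9 and 33.5 FPKM in R3-Cntl SFZ cells, at 44.8, 34.6 and 17.0 in SFZ cells labelled R3-cKO, at 59.3, 68.6 and 64.0 in R3-Cntl DZ cells and at 54.0, 47.4 and 44.1 in DZ cells labelled R3-cKO. The R3-Cntl DZ libraries lay above all others, although R3-Cntl SFZ library 1 came within 1 FPKM of the lowest of them. Nt5e was the most abundant member in all 6 DZ libraries, where Pdgfrb or Ly6a held that place in each SFZ library.

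Eng (Entrez gene 13805), the TGF-beta co-receptor endoglin, and Alcam (Entrez gene 11658), an adhesion molecule of the immunoglobulin family, differed less between zones. Eng stood at 20.3, 26.6 and 24.2 FPKM in R3-Cntl SFZ cells, at 22.8, 31.5 and 22.5 in SFZ cells labelled R3-cKO, at 7.45, 12.4 and 13.1 in R3-Cntl DZ cells and at 11.8, 18.5 and 13.9 in DZ cells labelled R3-cKO. Alcam stood at 5.79, 8.76 and 14.9, then 5.36, 12.1 and 5.65, then 1.42, 7.85 and 4.54, and then 5.77, 13.7 and 7.22 FPKM. Eng was higher in every SFZ than in every DZ library, while Alcam overlapped between all neighbouring groups.

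The receptor tyrosine kinases for platelet-derived growth factors, which drive growth and migration of mesenchymal cells, differed from each other in DZ cells. Pdgfrb (Entrez gene 18596) stood at 62.7, 83.0 and 51.7 FPKM in R3-Cntl SFZ cells, at 66.2, 45.3 and 105 in SFZ cells labelled R3-cKO, at 31.2, 27.7 and 36.2 in R3-Cntl DZ cells and at 29.6, 29.4 and 30.9 in DZ cells labelled R3-cKO. Pdgfra (Entrez gene 18595) stood at 13.5, 27.3 and 16.5, then 13.7, 16.3 and 30.3, then 0.95, 4.65 and 18.5, and then 1.30, 8.13 and 9.50 FPKM. Pdgfrb was even among DZ libraries and separated the zones, whereas Pdgfra ranged 19.5-fold among the R3-Cntl DZ libraries and overlapped with SFZ cells there. The ratio of Pdgfra to Pdgfrb ranged from 0.207 to 0.359 in SFZ and from 0.0305 to 0.511 in DZ libraries.

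Cdh13 (Entrez gene 12554), an anchored cadherin without a cytoplasmic tail that binds adiponectin, had the lowest mean of the members in each of the 4 groups. It stood at 6.10, 7.58 and 5.2 FPKM in R3-Cntl SFZ cells, at 5.30, 6.59 and 6.43 in SFZ cells labelled R3-cKO, at 0.05, 0.19 and 0.29 in R3-Cntl DZ cells and at 0.10, 0.36 and 0.27 in DZ cells labelled R3-cKO. All SFZ libraries were above all DZ libraries, and the genotypes overlapped in each zone.

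**Figure D1:**
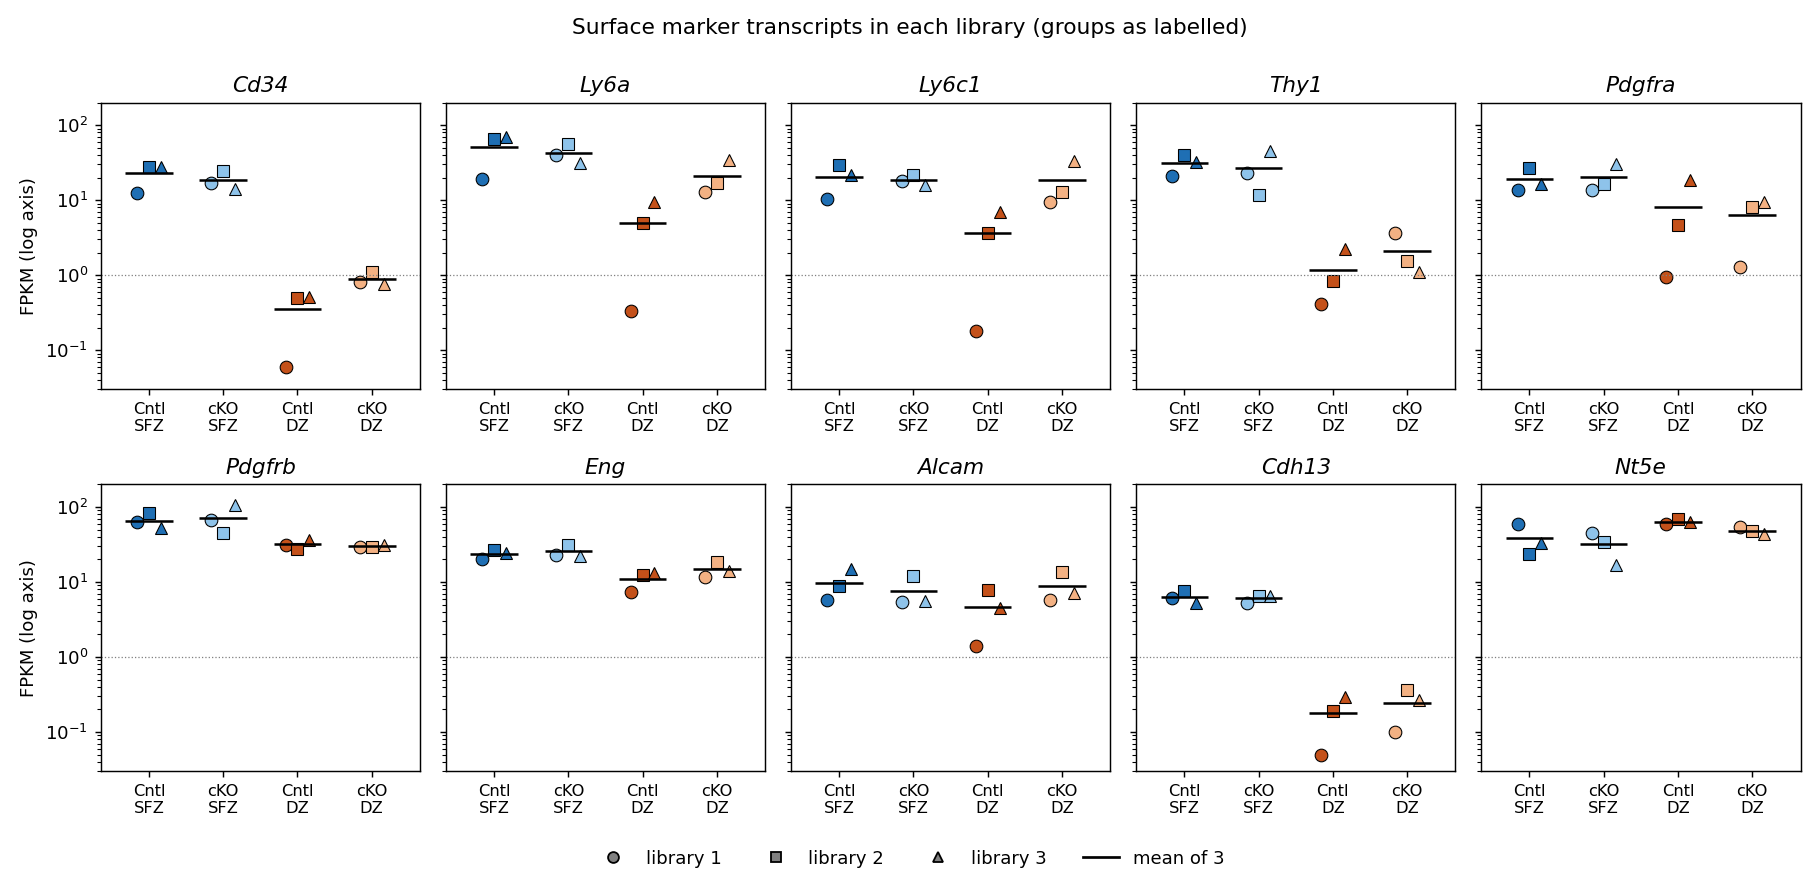
FPKM of each member on a log axis in the 12 libraries, by zone and genotype as labelled; symbols give the library number, bars the mean of 3 and the dotted line 1 FPKM. Cd34, Thy1 and Cdh13 lie far lower in all DZ libraries, Ly6a and Ly6c1 are lowest in R3-Cntl DZ cells, and Nt5e is highest there.

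The comparison of DZ with SFZ cells asks how the antigens are distributed through the depth of cartilage. In R3-Cntl mice 9 of the 10 members had a higher mean in SFZ cells and Nt5e a higher mean in DZ cells. The SFZ mean was 63.9 times the DZ mean for Cd34 (22.8 ± 8.86 against 0.357 ± 0.257 FPKM, SD, n = 3 each), 35.6 times for Cdh13, 26.5 times for Thy1, 10.4 times for Ly6a and 5.63 times for Ly6c1. For Pdgfra, Eng, Alcam and Pdgfrb it was 2.38, 2.16, 2.14 and 2.08 times. Some of these depend on single libraries: without one library the log2 difference ranged from -4.02 to -2.53 for Ly6a, -3.08 to -1.70 for Ly6c1, -4.26 to -3.66 for Thy1, -2.54 to -0.88 for Pdgfra and -1.48 to -0.54 for Alcam. For Nt5e the DZ mean of 64.0 ± 4.67 FPKM was 1.66 times the SFZ mean of 38.6 ± 17.9, and Nt5e of library 1 did not share in this, with 1.01 times.

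Of the 10 members, 7 had all R3-Cntl DZ libraries below all R3-Cntl SFZ libraries (Cd34, Thy1, Ly6a, Cdh13, Ly6c1, Eng and Pdgfrb), beside 26.5% of the 11336 genes tested, and Nt5e had them above, beside 5.96%. Since the zones served to choose the members, nothing is read from these shares. The members' median log2 difference, of values with 1 added, was -2.09, and that of all genes tested -0.17. The median of all genes stood at 0.05 after quantile normalization and at 0.01 with size factors in place of the deposited scaling, and each member kept its direction under both. In these bulk cultures fewer cells of a type and less RNA per cell cannot be told apart.

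In mice labelled R3-cKO the zones were closer to each other for some members. Cd34 still had an SFZ mean 20.9 times that of DZ cells, Cdh13 25.1 times, Thy1 12.8 times, Pdgfra 3.19 times, Pdgfrb 2.40 times and Eng 1.74 times, each without overlap. Those 6 members of 10 stood beside 16.8% of the 11336 genes tested with all DZ libraries lower, and no member stood beside the 4.24% with all DZ libraries higher. Ly6a was 1.98 times higher in SFZ cells with overlapping libraries, and Ly6c1 had means of 18.7 ± 2.87 FPKM in SFZ and 18.6 ± 12.9 in DZ cells. Alcam and Nt5e were higher in DZ cells, 1.16 and 1.51 times, and their libraries overlapped. Without one library the log2 difference ranged from -3.52 to -2.60 for Thy1, -2.12 to -1.03 for Pdgfra and -1.40 to -0.74 for Ly6a. It ranged from -0.68 to 0.17 for Ly6c1, -0.14 to 0.53 for Alcam and 0.29 to 0.96 for Nt5e. The difference between the genotypes in these contrasts was not tested.

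Across all genes, limma called 140 of 11336 between the zones of R3-Cntl mice at an adjusted p under 0.05, or 1.24%. Of these, 17 were higher and 123 lower in DZ cells, and 3102 genes had an unadjusted p under 0.05. These p-values set a difference of means against the spread between libraries, and this fit did not pair the zones by library number. Of the 3102, 560 were higher and 2542 lower in DZ cells under the deposited scaling, where quantile normalization gave 1685 and 1098 and size factors 1338 and 1316, so the excess of lower genes depends on the scaling. The count of 140 rested on single libraries: it was 505, 0 and 3 without SFZ libraries 1, 2 and 3 and 0, 0 and 4 without DZ libraries 1, 2 and 3. Between the zones labelled R3-cKO limma called 2 genes, or 0.0176%, both lower in DZ cells, with 1602 at an unadjusted p under 0.05, and 352 with the replicate number as a block. Without SFZ libraries 1, 2 and 3 that count was 0, 1 and 5, and it was 0 without each DZ library in turn. Members were among the genes tested: 3 of the 140 and both of the 2 genes called were members. Because the zones served to choose them, their calls between zones are not used.

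**Figure D2:**
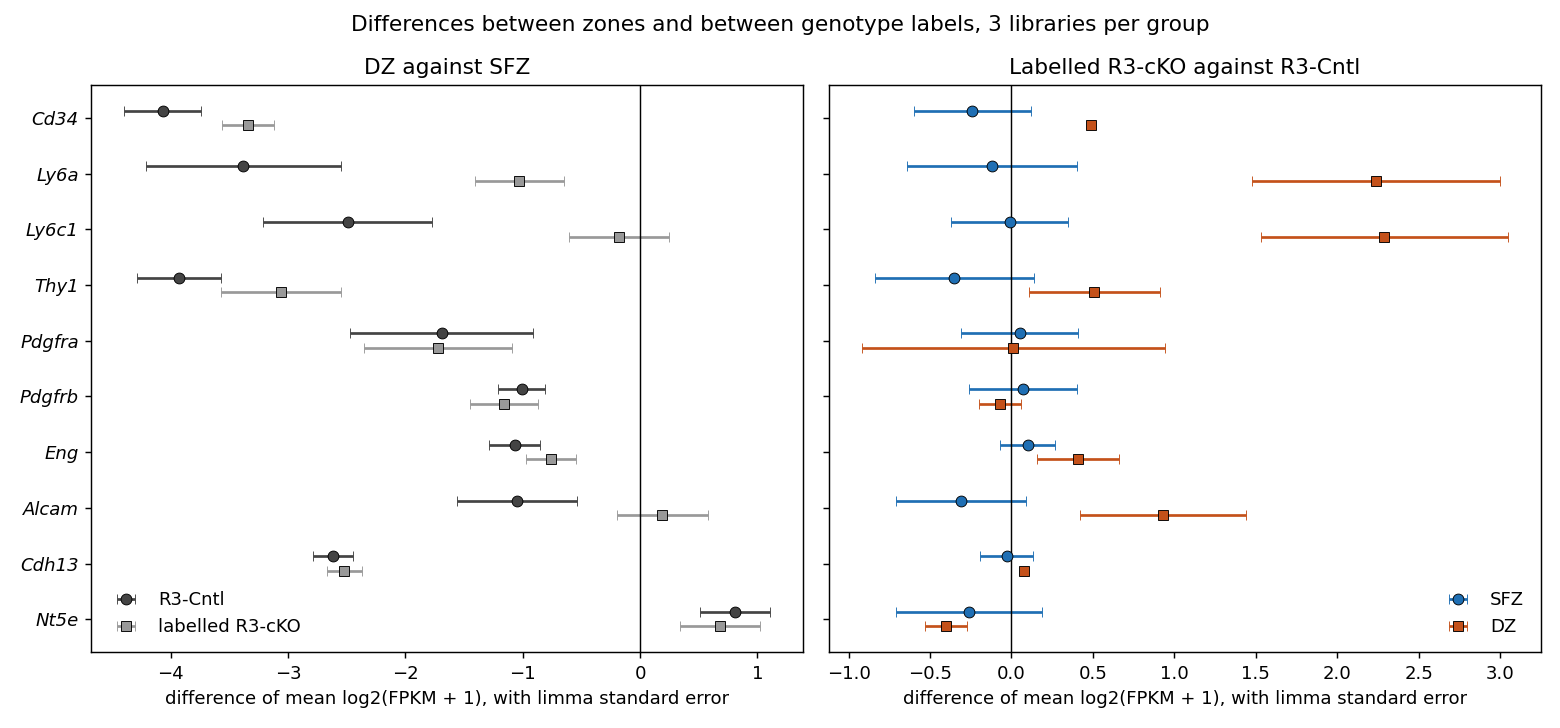
Differences of mean log2(FPKM + 1) for each member, with limma's standard error as bars (none for Cd34 and Cdh13 in DZ cells, which were below the filter there); left, DZ against SFZ cells of either genotype; right, labelled R3-cKO against R3-Cntl cells of either zone. Between genotypes the SFZ points lie close to 0 and the DZ points of Ly6a and Ly6c1 lie at 2.24 and 2.29.

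The comparison of genotypes in SFZ cells asks whether the antigens of surface cells differ with the Runx3 label, and it was the comparison in which the members could be tested. No member differed detectably. The groups overlapped for all 10, beside 1.45% of the 11537 genes tested with every library labelled R3-cKO higher and 0.953% with every one lower.

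On the log2 scale the largest differences belonged to Thy1, whose mean was 26.7 ± 17.0 FPKM in cells labelled R3-cKO and 31.0 ± 9.50 in R3-Cntl cells (log2 difference -0.35, 95% confidence interval -1.53 to 0.83), and to Alcam, with 7.69 ± 3.79 against 9.83 ± 4.67 (-0.31, -1.29 to 0.67). Among the progenitor antigens, Ly6a had means of 42.3 ± 12.9 and 51.5 ± 28.0 FPKM (-0.12, -1.38 to 1.14), Ly6c1 of 18.7 ± 2.87 and 20.3 ± 9.38 (-0.01, -0.88 to 0.85) and Cd34 of 18.5 ± 5.53 and 22.8 ± 8.86 (-0.24, -1.10 to 0.63). Library 1 alone gave the opposite sign for Ly6a, Ly6c1, Cd34 and Thy1, at 1.0, 0.76, 0.42 and 0.14, and otherwise gave -0.38 for Nt5e, -0.17 for Cdh13, -0.09 for Alcam, 0.02 for Pdgfra, 0.08 for Pdgfrb and 0.16 for Eng. The narrowest intervals were those of Cdh13 (-0.03, -0.41 to 0.35) and Eng (0.10, -0.32 to 0.52), and the remaining members were Nt5e (-0.26, -1.35 to 0.82), Pdgfra (0.05, -0.83 to 0.93) and Pdgfrb (0.07, -0.73 to 0.88).

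The exact two-sided permutation p, which for 3 against 3 libraries cannot go below 0.1, was 0.5 for Alcam, 0.6 for Cd34, 0.7 for Thy1, Eng and Nt5e, 0.8 for Ly6a, 0.9 for Pdgfra and Pdgfrb and 1 for Ly6c1 and Cdh13. The limma adjusted p rounded to 1 for each. Across the 11537 genes limma called 0, or 0%, with 34 at an unadjusted p under 0.05, of which 21 were higher and 13 lower in libraries labelled R3-cKO. Without R3-Cntl SFZ library 1, 2 members no longer overlapped, Ly6a and Cd34, both lower in libraries labelled R3-cKO, and without SFZ library 2 labelled R3-cKO this held for Alcam. The shares of all genes given above are for 3 against 3 libraries and do not apply to these splits, so nothing is read from them.

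In DZ cells 4 of the 10 members stood apart between the genotype labels. Ly6a and Ly6c1 were more abundant in all 3 mutant-labelled DZ libraries than in any of R3-Cntl, Cd34 was higher at a level near 1 FPKM, and Nt5e was lower. The mean of Ly6a was 21.3 ± 11.1 against 4.94 ± 4.58 FPKM, 4.32 times as high, with a log2 difference of 2.24. For Ly6c1 the mean was 18.6 ± 12.9 against 3.6 ± 3.42 FPKM, 5.17 times as high (log2 2.29), and for Cd34 0.887 ± 0.178 against 0.357 ± 0.257, 2.49 times as high (log2 0.49, which at this low level depends on the value added before the logarithm, with 1.33 for 0.1 and 0.14 for 5). The same values added gave 2.84 and 1.44 for Ly6a and 3.05 and 1.41 for Ly6c1.

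Taken by library number, Ly6a was 39.4, 3.41 and 3.57 times as high and Ly6c1 52.9, 3.6 and 4.75 times, the first ratio in each case resting on the few fragments of R3-Cntl DZ library 1. Cd34 was 13.5, 2.22 and 1.46 times as high, and for Cd34 the first ratio rests on about 4 fragments. Without that library the log2 difference was lowest for Ly6a and Ly6c1 among the libraries left out, at 1.38 and 1.5, and without R3-Cntl DZ library 3 it was highest, at 2.87 and 2.88. Nt5e had a mean of 48.5 ± 5.03 against 64.0 ± 4.67 FPKM, a ratio of 0.758 (log2 -0.40), and by number 0.911, 0.691 and 0.689.

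The other members overlapped between the DZ groups. Alcam (8.91 ± 4.24 against 4.6 ± 3.22 FPKM, log2 0.93) and Eng (14.7 ± 3.44 against 11 ± 3.07, log2 0.41) were higher under all 3 numbers, by 4.06, 1.75 and 1.59 times and by 1.58, 1.49 and 1.06 times. Without one library their log2 differences ranged from 0.42 to 1.35 and from 0.17 to 0.55, lowest without R3-Cntl DZ library 1. Thy1 was 8.80 and 1.80 times as high under numbers 1 and 2 and 0.498 times under number 3. Pdgfra, Pdgfrb and Cdh13 had log2 differences of 0.01, -0.07 and 0.08, whose sign changed under some of the alternatives. Library 1 alone gave log2 differences of 3.39 for Ly6a, 3.16 for Ly6c1, 0.77 for Cd34, 1.71 for Thy1, 0.60 for Eng, -0.13 for Nt5e, 0.24 for Pdgfra, -0.07 for Pdgfrb, 1.48 for Alcam and 0.07 for Cdh13.

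Of the 10 members, 3 had all DZ libraries labelled R3-cKO above all R3-Cntl DZ libraries, beside 5.26% of the 11091 genes tested, and 1 had them below, beside 2.78%. Cd34 and Cdh13 were below the filter of 1 FPKM in 3 of the 6 libraries, so 8 members were among the genes tested. Of these 8, 2 lay above and 1 below. Because DZ cells of the mutant served to choose members, nothing is read from these shares. The median log2 difference was 0.45 for the 10 members and 0.05 for all genes tested. Across all genes limma called 0, or 0%, with or without the replicate number as a block, where the unadjusted p was under 0.05 for 404 genes, and with the block for 1830. Of the 404, 277 were higher and 127 lower under the deposited scaling. Quantile normalization gave 237 and 212 and size factors 254 and 165, so the excess of higher genes depends on the scaling.

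Transcripts of other lists went with some of these differences, and their part in them was not tested. The list of smooth muscle and pericyte genes, 9 of 10 in the table, summed to 55.5, 187 and 91.5 FPKM in R3-Cntl DZ cells and to 383, 532 and 199 in DZ cells labelled R3-cKO, with no overlap. Most of that sum was Acta2, the smooth muscle actin that cultured mesenchymal cells also make, at 47.7, 147 and 70.3 against 302, 401 and 163 FPKM, followed by the actin-binding Tagln. The pericyte markers Rgs5 and Kcnj8 of the same list were at 0 to 0.22 and 0 to 0.03 FPKM in DZ libraries, and 6 of the 9 genes were below 1 FPKM in all of them. The list of keratinocyte genes, led by Perp, also separated the DZ groups, at 10.5 to 12.5 against 18.4 to 22.9 FPKM summed, with 6 of its 10 genes below 1 FPKM in all libraries. The cartilage list had a median log2 difference of -0.52 in DZ cells labelled R3-cKO, against 0.05 for all genes, and 3 of its 16 genes tested, Col11a2, Hapln1 and Sox5, lay below without overlap, beside 2.78%; Hapln1 stood at 475, 342 and 441 against 821, 664 and 590 FPKM.

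Endothelial cells make Cd34, Ly6a, Ly6c1, Eng and Cdh13, and their defining markers were close to 0 in DZ cells. Cdh5 was at 0 to 0.01 FPKM, Kdr at 0 to 0.04 and Pecam1 at 0.02 to 0.31 in the 6 DZ libraries, and 12 of 14 genes of the list were below 1 FPKM in all of them. The endothelial list, led by Ramp2, summed to 4.58, 3.09 and 4.42 FPKM in R3-Cntl DZ cells and to 3.75, 3.41 and 3.39 in DZ cells labelled R3-cKO. In SFZ cells the list summed to 19.6, 31.9 and 6.41 and to 15.3, 10 and 31.7 FPKM, with Cdh5 at 0.02 to 1.21. Among blood cell genes, Ptprc was at 0 to 0.08 FPKM in DZ and at 0 to 0.88 in SFZ libraries, while the list of 14, led by Lyz2, summed to 217, 181 and 7.76 FPKM in R3-Cntl SFZ, 181, 17.2 and 84.0 in SFZ labelled R3-cKO, 12.4, 9.61 and 30.4 in R3-Cntl DZ and 8.14, 4.81 and 5.45 in DZ labelled R3-cKO.

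Of the genes of fibroblasts, tendon and perichondrium all 18 were in the table, and most but not all were less abundant in DZ cells. Their sum was 5521, 9140 and 5485 FPKM in R3-Cntl SFZ cells and 5802, 4725 and 13088 in SFZ cells labelled R3-cKO, led by Col1a1. It was 1212, 1511 and 3951 in R3-Cntl DZ cells and 1359, 1327 and 3044 in DZ cells labelled R3-cKO. In R3-Cntl DZ cells Fmod stood at 591, 466 and 943 FPKM and Col1a1 at 24.4, 242 and 961. In DZ cells labelled R3-cKO Fmod stood at 781, 399 and 784 FPKM and Col1a1 at 52.8, 244 and 576. Between the zones of R3-Cntl mice limma called 4 of 17 genes tested as lower in DZ cells, namely Postn, Twist2, Tnmd and Mfap5 (log2 -4.72, -1.63, -4.62 and -3.06, limma adjusted p 0.048, 0.048, 0.0473 and 0.048), beside 1.24% of all genes called. In this list 14 of the 17 had all R3-Cntl DZ libraries below all SFZ libraries, beside 26.5% of all genes, and Dcn had them above, beside 5.96%, at 331, 258 and 549 against 191, 121 and 106 FPKM (log2 1.41); the median log2 difference was -1.99 for the list and -0.17 for all genes. For the list of superficial zone genes it called 3 of 9 as lower in DZ cells, Prg4, Sfrp2 and Thbs4 (log2 -2.36, -5.62 and -5.23, adjusted p 0.0485, 0.048 and 0.0235), beside the same 1.24%, while Gdf5 was above in every DZ library (log2 0.96); these calls share the dependence of the 140 on single libraries. Of the 16 cartilage genes tested 0 were called, with 15 higher in every R3-Cntl DZ than in every R3-Cntl SFZ library, beside 5.96% of all genes, and a median of 1.59. In every other comparison limma called 0 genes of these lists, beside the counts at an unadjusted p under 0.05 given above for all genes.

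The lists for muscle and bone served to check for tissue carried over. Skeletal muscle genes, led by Tnnt3, summed to 87.5 FPKM in R3-Cntl SFZ library 2 and to 3.59 to 9.80 in the other 11 libraries, and Mylpf stood at 40.2 FPKM in that library. Osteoblast genes, led by Spp1, summed to 285 to 686 FPKM in SFZ and 346 to 1066 in DZ libraries. Alpl of that list, the alkaline phosphatase of mineralising cells, stood at 22.9, 34.6 and 51.4 FPKM in R3-Cntl DZ cells and at 11.9, 8.43 and 11.4 in DZ cells labelled R3-cKO, without overlap (log2 -1.63, limma adjusted p 0.999). With Sp7 and Bglap it was 1 of 3 genes that lay below there without overlap, of 7 tested, beside 2.78% of all genes. Ibsp and Bglap2 had log2 differences of -1.54 and -0.88, Spp1 and Runx2 of 0.03 and 0.30, and the list's median was -0.88. In SFZ cells Alpl and Sp7 also lay below without overlap, 2 of the 7 tested, beside 0.953% of all genes. Of the 7 osteoblast genes tested limma called 0 in any comparison.

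Within a zone some members varied together. Over the 6 libraries of a zone, of both genotypes, Pearson's r of log2 values is given as a description without a p-value. Ly6a, Ly6c1 and Cd34 went together, with r from 0.90 to 0.97 in SFZ and from 0.86 to 1.0 in DZ cells. Eng followed these 3 with r of 0.73 to 0.74 in SFZ and 0.80 to 0.92 in DZ cells, and Alcam with 0.58 to 0.85 and 0.74 to 0.91. Without the 2 libraries farthest from the median of the first-named gene, r of Ly6a was 0.69 with Ly6c1 and 0.99 with Cd34 over SFZ libraries, and 1.0 and 0.89 over DZ libraries. In SFZ cells the r of Eng with Ly6a and Cd34 then came to 0.32 and 0.43, and in DZ cells r of Cd34 came to -0.04 with Eng and 0.05 with Alcam, so that these 4 relations rest on the outermost libraries. The r of Ly6c1 with Eng stayed at 0.71 in SFZ cells, and that of Alcam with Ly6a, Ly6c1 and Cd34 there was 0.84, 0.90 and 0.82. In DZ cells Ly6a and Ly6c1 had 0.60 and 0.63 with Eng. Their r with Alcam in DZ cells fell from 0.78 and 0.74 to 0.36 and 0.38, so that these 2 also rest on the outermost libraries. In DZ cells the labels of genotype differ in these genes, so that those values include the difference between the groups.

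Pdgfra, Pdgfrb and Thy1 had r of 0.72 to 0.80 among them in SFZ cells and of 0.16 to 0.50 in DZ cells. In SFZ cells the relation of Pdgfrb to the other 2 rested on the outermost libraries, since without the 2 farthest from the median of the first gene r was -0.91 for Pdgfra with Pdgfrb and 0.33 for Thy1 with Pdgfrb, and 0.91 for Thy1 with Pdgfra. The low DZ values also rested on the outermost libraries, as without the 2 farthest they were 0.98, 0.88 and 0.91 for the same pairs. With Ly6a, Ly6c1 and Cd34 the r of Pdgfrb was -0.42 to -0.06 in SFZ and -0.21 to 0.01 in DZ cells. Without the 2 libraries farthest from the median of the first gene, Ly6c1 with Pdgfrb in SFZ cells went from -0.06 to -0.98. Ly6a and Cd34 with Pdgfrb there came to -0.09 and -0.08. Nt5e had a negative r with all 9 others in SFZ cells, from -0.95 with Pdgfra to -0.08, and from -0.69 to 0.12 in DZ cells. Without the 2 libraries farthest from the median of Nt5e its r with Pdgfra in SFZ cells was -0.97, but its r with Pdgfrb in DZ cells came to 0.84, and r of Ly6c1 with Nt5e in SFZ cells turned from -0.50 to 0.61 without the 2 farthest from the median of Ly6c1. Spearman's rho over the 6 libraries was 0.83 and 1.0 for Ly6a with Ly6c1, 0.99 and 0.83 for Ly6a with Cd34 and -1.0 for Nt5e with Pdgfra in SFZ cells.

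**Figure D3:**
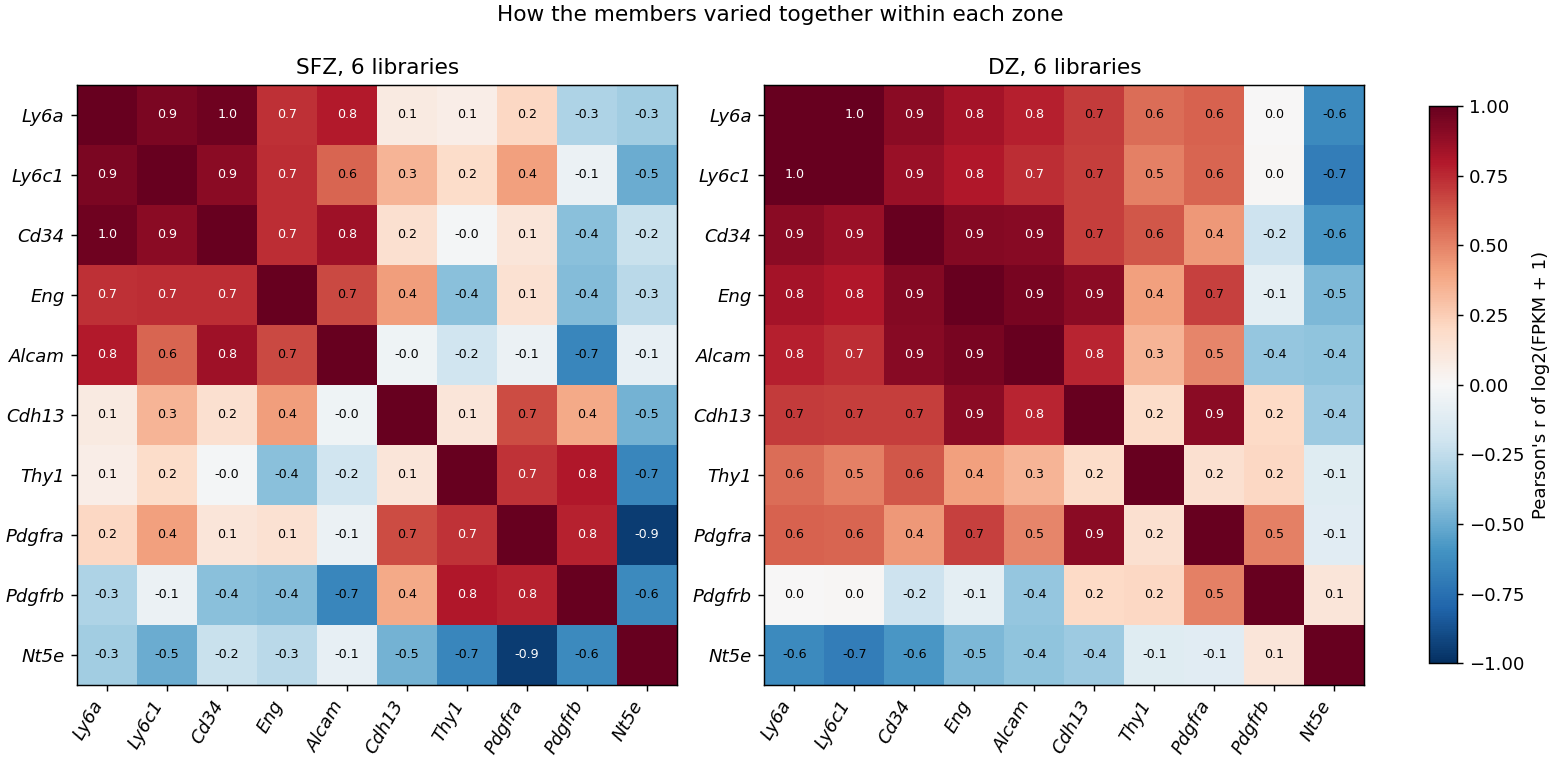
Pearson's r of log2(FPKM + 1) between the members over the 6 libraries of each zone, red for positive and blue for negative. In both zones the values among Ly6a, Ly6c1 and Cd34 are at least 0.86; several of the other high values rest on the outermost libraries, such as Pdgfra with Pdgfrb in SFZ cells (0.77, and -0.91 without 2 of them).

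Beside the marker lists, members took different places in SFZ cells. In these Ly6a had an r of 0.88 with the summed smooth muscle and pericyte list, Cd34 of 0.93 and Alcam of 0.92, and in DZ cells these were 0.70, 0.92 and 0.87. With the keratinocyte list the r of Ly6a and Cd34 was 0.79 and 0.92 in DZ and 0.31 and 0.15 in SFZ cells. In DZ cells the labels of genotype differ in both of these lists, so that the DZ values include the difference between the groups. Pdgfrb had an r of 0.95 with the summed fibroblast list in SFZ cells and 0.74 in DZ cells, Pdgfra of 0.91 and 0.81, and Thy1 of 0.82 and 0.22, where in DZ cells Thy1 had 0.53 with the smooth muscle and pericyte list. Nt5e had an r of 0.91 with the summed cartilage list in SFZ cells and 0.28 in DZ cells. For Pdgfra in SFZ cells the relation with the fibroblast list rested on the outermost libraries, since r was -0.63 without the 2 farthest from its median. In DZ cells the same holds for Pdgfrb with that list (0.38) and for Alcam with the smooth muscle and pericyte list (0.41). There Thy1 with the smooth muscle and pericyte list turned to -0.31, while Nt5e with the cartilage list rose from 0.28 to 0.89.

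**Figure D4:**
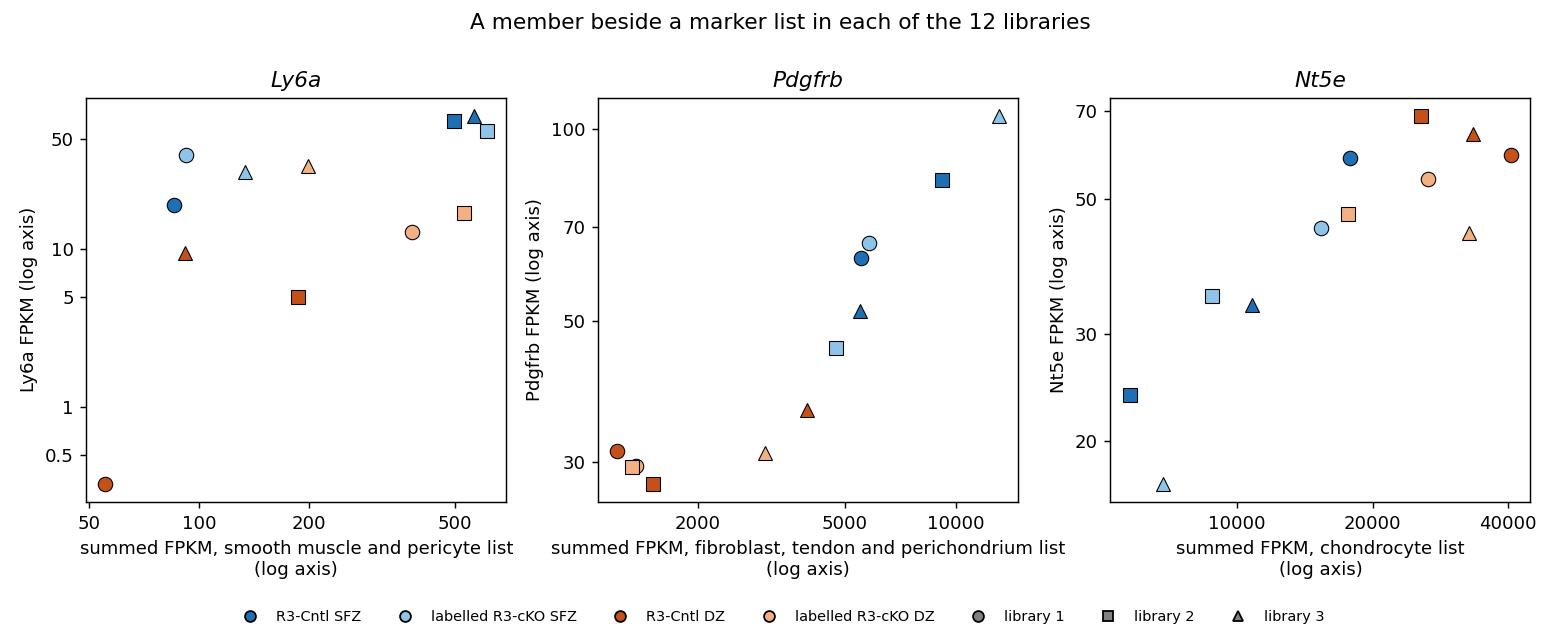
FPKM of Ly6a, Pdgfrb and Nt5e against the summed FPKM of the smooth muscle and pericyte, the fibroblast and the cartilage list in each of the 12 libraries, all on log axes; colours give the groups as labelled and symbols the library number. Pdgfrb is highest, at 105 FPKM, in the library with the highest fibroblast sum, and Nt5e is lowest, at 17.0 FPKM, in a library low in the cartilage sum.

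The genes whose pattern over all 12 libraries was most like that of a member were found by Pearson's r of log2 values, 3 for each, over libraries that include the difference between zones. For Ly6a they were Tmsb4x, Zfp703 and Rbms2, each with r of 0.98, and for Ly6c1 Zfp703 (0.97), Ly6a and Lamb2 (0.96 each). For Cd34 they were Crabp1, Cdh13 and Zfp628, and for Cdh13 Thbs4, Cd34 and Tbx18, all with 0.98. For Thy1 they were Fzd1 (0.99), Apbb1ip (0.98) and Fnbp1 (0.97), for Eng Dusp7 (0.99), Arhgap35 and Dlg5 (0.98 each), and for Alcam Arl6ip5, Tm4sf1 (0.98 each) and Afdn (0.97). Pdgfra was nearest to Sufu, Col12a1 (0.98 each) and Eva1b (0.97), Pdgfrb to Olfml1, Selenop and Cbx6 (0.99 each), and Nt5e to Prkg2 (0.96), the cartilage link protein gene Hapln1 and Raph1 (0.95 each).

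The partners of the members in their pathways were examined by lists from which the members themselves were left out. In each of the 4 comparisons limma called 0 genes of every one of these lists, beside the all-gene counts above. Of the PDGF list, Pdgfa, the ligand that binds Pdgfra, stood at 26.8, 26.2 and 27.2 FPKM in R3-Cntl SFZ and at 22.3, 18.2 and 15.4 in R3-Cntl DZ cells, without overlap. Pdgfa was 1 of 3 genes of the 8 tested with all R3-Cntl DZ libraries lower, beside 26.5% of all genes. Ptpn11, a phosphatase of the pathway and the most abundant of the list, stood at 25.3 to 34.9 FPKM in all 12 libraries, and the largest differences between the R3-Cntl zones among the 8 genes that passed the filter were those of Pik3r1 and Pdgfc (log2 -0.59 and -0.54). Pdgfb, the ligand of both receptors, was at 0.01 to 0.93 FPKM in all 12 libraries. In SFZ cells the median log2 difference of the 8 PDGF genes tested was 0.01 between genotypes, and in DZ cells that of 7 was 0.05.

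Around endoglin, the accessory receptor Tgfbr3 and the ligand gene Tgfb3 had lower R3-Cntl DZ than SFZ libraries throughout, at 1.74, 3.70 and 8.60 against 8.71, 14.5 and 8.88 FPKM for Tgfbr3 and at 4.67, 17.3 and 20.5 against 26.3, 67.6 and 41.6 for Tgfb3. Acvrl1, the receptor with which endoglin acts in endothelium, was at 0.13 to 0.31 FPKM in DZ and 1.02 to 2.99 in SFZ libraries. These were the 3 of 14 genes tested with all R3-Cntl DZ libraries lower. Among all genes 26.5% were, so nothing is read from the count. Id3, a target of BMP signalling and the most abundant gene of the list, stood at 87.2, 90.1 and 98.2 FPKM in R3-Cntl DZ cells and at 98.9, 161 and 114 in DZ cells labelled R3-cKO, without overlap. Smad1, a transducer of BMP signals, stood apart the other way, at 8.52, 8.55 and 10.1 against 7.42, 7.62 and 7.85 FPKM. In DZ cells 1 of the 13 genes tested lay above and 1 below, beside 5.26% and 2.78% of all genes, so nothing is read from these counts. The list's median log2 difference between genotypes was -0.02 over 14 genes in SFZ and 0.13 over 13 genes in DZ cells.

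Around Nt5e, the enzyme Entpd1 that makes its substrate was at 0.23 to 0.81 FPKM in all 12 libraries, and Enpp1, another source of AMP, at 6.78 to 15.3. The adenosine receptor gene Adora2b was at 0.06 to 0.50 FPKM. Slc29a1, which carries adenosine across the membrane and was the most abundant gene of the list, stood at 49.4, 67.7 and 76.0 FPKM in R3-Cntl SFZ and at 26.5, 36.4 and 52.5 in R3-Cntl DZ cells, with overlap. Between genotypes the list's median log2 difference was 0.05 over 6 genes in SFZ and 0.16 over 4 in DZ cells, and 5 of 11 genes were below 1 FPKM in all libraries.

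Among relatives of Cdh13, the mesenchymal cadherin Cdh11 was the most abundant, at 65.7 to 403 FPKM in SFZ and 18.2 to 71.5 in DZ libraries, and Cdh2 stood at 7.10 to 24.6 and 1.06 to 6.39. Among relatives of Ly6a, Ly6e stood at 22.9 to 84.5 FPKM in SFZ and 3.03 to 42.3 in DZ libraries, and 8 of 11 measured family members were below 1 FPKM throughout. Of 30 further mesenchymal surface antigens, the tetraspanin Cd63 was the most abundant. Of the 27 tested between the R3-Cntl zones, 11 had all DZ libraries below all SFZ libraries, beside 26.5% of all genes, and 0 above, beside 5.96%. Differences were largest for Cd248 (log2 -2.98), Anpep and Cd44 (-1.98 each). Cd44, the hyaluronan receptor, was one of the 11, at 18.1, 34.1 and 49.7 against 2.22, 13 and 11.4 FPKM, and stood at 25.2, 41.5 and 8.15 in DZ cells labelled R3-cKO, overlapping with R3-Cntl. The list's median log2 difference between genotypes was -0.02 over 28 genes in SFZ and 0.13 over 25 in DZ cells.

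Ly6a and Ly6c1 are neighbours on chromosome 15 (mm9), in the same orientation and with 47.4 kilobases between them, Ly6a from 74825308 to 74828064 and Ly6c1 from 74875447 to 74879260 on the reverse strand. Cd34 lies on chromosome 1, from 196765015 to 196787486, and Nt5e on chromosome 9, from 88222447 to 88266927, which also carries Thy1, from 43851467 to 43856662.

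Promoter sequence before the start site was at hand for 6 of the 10 members in RefSeq (GRCm38.p6): Ly6c1, Cd34, Nt5e, Eng, Pdgfra and Alcam. The 250 bases before the start were searched on both strands for TGTGGT, the letters that runt factors prefer, for their less frequent form TGCGGT, for CCAAT, the letters of that box, for TATAAA, those of the TATA box, and for GGGCGG, those of the GC box. TGTGGT or TGCGGT was in 0 of the members' 7 windows and in 18.6% of all 32851, which says only that these letters are not in these windows. The motif that the authors report for Runx3 binding also allows C as its last letter, and the forms TGTGGC and TGCGGC were not searched. On either strand, TGTGGC is present in windows of Ly6c1, Cd34 and Eng, and TGCGGC in that of Nt5e. Their share among all windows was not counted, so nothing is read from their presence. CCAAT was in 33.8% of all windows and in those of Ly6c1 and Alcam, TATAAA in 12.4% and in Ly6c1, and GGGCGG in 32.7% and in Nt5e and Alcam. Ly6c1 has 2 of the 7 windows, for 2 starts, and only the one shown holds CCAAT or TATAAA. The windows of Ly6c1 and Cd34, with an r of 0.90 over SFZ and 0.86 over DZ libraries, and of Nt5e, the member higher in R3-Cntl DZ cells, are shown with the letters searched in capitals.
Ly6c1, chr15:75048838-75049087, reverse strand: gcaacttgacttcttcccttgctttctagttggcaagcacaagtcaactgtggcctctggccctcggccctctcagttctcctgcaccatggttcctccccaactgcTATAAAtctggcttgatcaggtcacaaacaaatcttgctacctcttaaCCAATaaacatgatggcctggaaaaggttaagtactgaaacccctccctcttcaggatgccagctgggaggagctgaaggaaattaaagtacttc
Cd34, chr1:194938571-194938820, forward strand: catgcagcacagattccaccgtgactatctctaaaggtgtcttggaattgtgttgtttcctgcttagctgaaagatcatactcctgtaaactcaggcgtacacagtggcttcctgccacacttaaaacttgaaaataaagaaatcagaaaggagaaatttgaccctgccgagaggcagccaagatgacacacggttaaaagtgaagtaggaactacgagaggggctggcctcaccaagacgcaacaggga
Nt5e, chr9:88327359-88327608, forward strand: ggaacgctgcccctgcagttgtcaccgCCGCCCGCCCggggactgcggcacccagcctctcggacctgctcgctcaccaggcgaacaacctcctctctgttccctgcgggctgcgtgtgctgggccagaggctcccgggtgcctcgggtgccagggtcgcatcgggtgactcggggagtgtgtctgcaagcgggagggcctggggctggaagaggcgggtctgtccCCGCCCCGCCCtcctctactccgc

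In the window of Ly6c1 the TATAAA lies 143 to 138 bases before the start and the CCAAT 95 to 91 bases before it, and the window holds 48.4% G and C. That of Cd34 has none of the letters searched and 46.4% G and C. The window of Nt5e has 4 GC boxes on the opposite strand, in overlapping pairs from 223 to 214 and from 24 to 14 bases before the start, and 72.0% G and C, where the median of all windows was 52.4%.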

How the data were processed

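Transcripts were measured by sequencing of BGIseq-500 libraries with 100-base paired reads, mapped by the authors to mm9 (Bowtie 0.12.2 is in their notes), in 12 libraries of SFZ and DZ cells. The deposited values are FPKM, an inference from the steps between low values, scaled by the authors with TMM; the counting method is not stated. Groups were taken from the labels. Fits used limma 3.58.1 in R 4.3.3, with a mean-variance trend, on log2 of FPKM with 1 added, for genes that reached 1 FPKM in 3 or more of the 6 libraries compared; p-values were adjusted over all genes tested (Benjamini-Hochberg) and called under 0.05. The fit was tested on simulated data. Tables were made with Python 3.11.15 and pandas 2.3.3.

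The members and lists were chosen with earlier results of these data known. Named genes are the 10 members, Runx3, from the lists up to 4 examples among the most abundant gene and those with the largest differences in a comparison, and the 3 genes most like each member; others, such as Ly6c2, Ly6i, Cdh5, Kdr, Pecam1, Ptprc, Rgs5, Kcnj8, Pdgfb, Entpd1 and Adora2b, were chosen after their values were seen. The alternatives tried were to drop the filter or raise it to a mean of 10 FPKM, to add 0.1 or 5 in place of 1, to normalize by quantiles or by median-of-ratios size factors, to fit all 12 libraries together, to leave out each library, to use library 1 alone, and to enter the replicate block, which gave the values below.

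Whether equal numbers belong together was checked by correlating, over 11359 genes, each library's deviation from its group's mean. Equal numbers correlated best between genotypes in DZ cells (0.65, 0.78 and 0.69) and between zones labelled R3-cKO (0.42, 0.78 and 0.65), where limma with the replicate block called 0 and 352 genes. Elsewhere, R3-Cntl SFZ libraries 2 and 3 did not correlate best with their own number but crosswise. Between genotypes in SFZ cells numbers 2 and 3 gave 0.45 and 0.69 crosswise, against -0.09 and -0.42 for equal numbers. Between the R3-Cntl zones they gave 0.38 and 0.58, against 0.11 and -0.15. The replicate block follows the numbers as labelled, and a block with 2 and 3 exchanged was not fitted.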

Additional observations from a re-analysis of the deposited data

How the results depend on the processing

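Between genotypes, limma called 0 genes in SFZ and in DZ cells under every alternative, the replicate block included, and 0 without any one library, with 12 to 1204 genes in SFZ and 184 to 1830 in DZ cells at an unadjusted p under 0.05. Between the zones of R3-Cntl mice the 140 genes called became 0 with no filter on low values, 8 when a mean of 10 FPKM was required, 88 and 29 with pseudocounts of 0.1 and 5, 1 after quantile normalization, 17 with median-of-ratios size factors, 831 with the replicate block, 798 with all 12 libraries in one model, and 0 to 505 without one library. The 831 rests on equal numbers that correlated at only 0.58, 0.11 and -0.15 between these zones. Between the zones labelled R3-cKO the 2 genes became 7 with no filter, 0 when that mean was required, 1 with either pseudocount, 352 with the replicate block, 165 with all 12 libraries in one model, and 0 to 5 without one library. The cause was not tested.

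The members whose groups did not overlap were counted again by alternatives chosen after seeing the data. In SFZ cells between genotypes they numbered 0 to 2 without one library, where all libraries gave 0. The 4, 8 and 6 of the other comparisons stayed within 1.5 times of that count after quantile normalization, with size factors and without any one library. No share of all genes is given for these alternatives, so nothing is read from the counts.

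Between genotypes in SFZ cells each member's log2 difference changed sign under some alternative, and the cause was not tested. With library 1 alone it was 1.0 for Ly6a, 0.76 for Ly6c1, 0.42 for Cd34 and 0.14 for Thy1, and after quantile normalization 0.01 for Ly6c1. Without one library it ranged from -0.71 to 0.20 for Ly6a, -0.41 to 0.29 for Ly6c1, -0.81 to 0.11 for Thy1, -0.05 to 0.18 for Eng, -0.55 to 0.12 for Nt5e, -0.28 to 0.33 for Pdgfra, -0.23 to 0.36 for Pdgfrb, -0.65 to 0.01 for Alcam and -0.14 to 0.09 for Cdh13. Of the members' values in the other comparisons, the sign changed for Cdh13, Pdgfra and Pdgfrb between genotypes in DZ cells and for Ly6c1 and Alcam between zones labelled R3-cKO, and for no member between the zones of R3-Cntl mice; the size of values of members low in DZ cells depended on the pseudocount, with 0.1 and 5 giving -5.79 and -2.32 for Cd34, -4.85 and -2.52 for Thy1, -4.62 and -1.12 for Cdh13, -4.01 and -2.46 for Ly6a and -3.26 and -1.56 for Ly6c1 between the R3-Cntl zones, and 2.84 and 1.44 for Ly6a and 3.05 and 1.41 for Ly6c1 between the DZ genotypes. Members under a mean of 10 FPKM gave no value where that mean was required. Depth limits Cd34, Cdh13, Ly6a and Ly6c1 in R3-Cntl DZ library 1, each at fewer than 10 fragments.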
